A study of Homo sapiens with 6 samples.

Results

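Nonsense-mediated decay (NMD) is the pathway that degrades messenger RNAs whose translation stops too early. The 7 genes described here, UPF1, UPF2, UPF3A, UPF3B, SMG1, SMG5 and SMG6, encode its core proteins. They were picked by name, with earlier results of these data known, as the rows of the expression table that carry these symbols. All 7 were found among the 26372 genes of the table, and all 7 passed the filter on low values, a mean of 1 FPKM or more.

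The cells were SH-SY5Y, a human neuroblastoma line used as a neuron model, grown with 15% serum. One group had been infected with lentivirus that expresses a hairpin RNA (shRNA) targeting TDP-43 (titled shT2), the other with a control shRNA (titled shNC3), each under a U6 promoter vector. The labels describe puromycin selection of the stable knockdown cells at 2 μg/mL for 2 weeks, followed by 1 μg/mL for long-term culture. They give no cell age, no clone and no separate cultures for the 3 libraries of a group, so the p-values below rest on the spread between libraries alone, which may be technical.

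TDP-43, an RNA-binding protein encoded by TARDBP, keeps cryptic exons out of messenger RNAs, and many such exons bring a premature stop codon that makes the transcript a substrate of NMD. In the pathway, the RNA helicase UPF1 meets a ribosome that has stopped early. UPF2 joins UPF1 to UPF3A or UPF3B, the paralogues that read the exon junction complex left behind by splicing. The kinase SMG1 then phosphorylates UPF1, and phosphorylated UPF1 recruits SMG6, which cuts the RNA, and SMG5, which leads to decapping and deadenylation. Several of these factors are encoded by transcripts that NMD itself degrades, a known feedback of the pathway.

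Promoter sequences were looked at next. RefSeq (GRCh38.p14) gave 14 promoter windows for the 7 genes, each from 250 bases before to 50 bases after a transcription start. The motif TCGCGAGA, searched on both strands, was in a window of 3 genes, UPF3A, UPF3B and SMG5, against 1.37% of all 27305 genes with such a window. All genes had 35116 windows for 27305 genes, fewer per gene than the 7 factors, and not all of them were tested here. Among tested genes with windows 279 had the motif and 9633 did not. The motif was picked after the sequences were seen. In UPF3B and SMG5 it occurred at 2 positions, in UPF3B as overlapping copies on opposite strands. The 100 bases around it follow, 5′ to 3′ in the direction of the gene, with the motif in capitals (in UPF3A on the opposite strand, so its reverse complement is seen), for UPF3A on the plus strand at chr13:114281541-114281640, for UPF3B on the minus strand at chrX:119853030-119853129 and for SMG5 on the minus strand at chr1:156282828-156282927.
UPF3A: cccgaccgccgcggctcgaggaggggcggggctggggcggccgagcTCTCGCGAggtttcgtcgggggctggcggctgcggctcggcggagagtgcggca
UPF3B: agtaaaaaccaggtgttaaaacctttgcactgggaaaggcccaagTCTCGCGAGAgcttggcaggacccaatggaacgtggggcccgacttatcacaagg
SMG5: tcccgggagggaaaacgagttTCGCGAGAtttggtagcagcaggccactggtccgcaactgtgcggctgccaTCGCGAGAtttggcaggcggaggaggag

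The promoter of UPF2, shown because UPF2 changed most of the 7 on the deposited scale, held none of these. Of its 2 windows, 1 is printed (minus strand, chr10:12043121-12043420), with capitals for an E box (CACGTG) and the CCAAT boxes (CCAAT, either strand). The other (minus strand, chr10:12042760-12043059) held no E box and no CCAAT box. GC boxes (GGGCGG, either strand) were in both, 2 in the printed window, where they are not marked, and 4 in the other.
UPF2: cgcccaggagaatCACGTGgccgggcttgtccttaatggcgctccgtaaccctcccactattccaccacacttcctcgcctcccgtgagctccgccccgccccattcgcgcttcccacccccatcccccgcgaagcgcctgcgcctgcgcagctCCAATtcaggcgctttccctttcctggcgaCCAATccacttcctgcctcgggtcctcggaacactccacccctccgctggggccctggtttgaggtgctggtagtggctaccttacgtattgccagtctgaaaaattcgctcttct
Counted on both strands and over all windows of a gene, an E box was in 2 of the 7 genes and in 8.77% of all genes, a CCAAT box in 4 of 7 and 39.7%, and a GC box (GGGCGG) in 7 of 7 and 48.3%. These shares too compare genes with unequal numbers of windows, and those of all genes include genes that were not tested here. A match describes the letters only. Of the 3 genes with TCGCGAGA, UPF3A alone passed the test below on the deposited scale with all libraries and the filter. With quantile normalization UPF3B and SMG5 passed as well.

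Depth and identity were checked first. The number of reads is unknown in FPKM (fragments per kilobase of transcript scaled to library size). Steps between low values gave a relative depth of 52.9% to 94.4% for the knockdown libraries and 84.2% to 100% for the control libraries. They measure the scaling per fragment, which need not follow the number of reads. For knockdown library 2 the step rests on 99 of 1363 genes. The FPKM of a library summed to 2123050 to 2449950 under knockdown and 1182980 to 1226730 in the control. TARDBP (chromosome 1, 11012344 to 11026420, plus strand) stood at 21.9, 20.7 and 20.98 FPKM under knockdown and at 50.3, 50.3 and 47.7 in the control, a log2 fold change of -1.19 (limma adjusted p = 6.69e-08). The noradrenergic marker genes of this cell type summed to 1213 to 1328 FPKM under knockdown and 721 to 729 in the control, with TH at 0 in every library, and of 11 tested 9 rose and 2 fell. Of 14 mesenchymal markers 12 fell and 1 rose, and their sum was 724 to 735 FPKM against 2610 to 2655. Among all tested genes 35.9% fell and 30.5% rose. Of 8 Schwann and glial markers only 4 passed the filter and were tested, of which 3 rose and 1 fell. The sums over all 8 were 52.7 to 53.6 against 45.3 to 47.8 FPKM, with CDH19 at 0 in every knockdown library. The part of these differences in the results below was not tested, and in bulk RNA fewer cells of a type and less RNA per cell cannot be told apart.

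In the knockdown 2 of the 7 factors rose and 0 fell, by limma at an adjusted p under 0.05 (Benjamini-Hochberg over 13434 genes). By the same rule 66.3% of all tested genes were called, 30.5% higher and 35.9% lower. The factors that rose were UPF2 and UPF3A. By their single values the groups did not overlap for 5 of the 7, against 70.8% of all tested genes. The median log2 fold change of the 7 was 0.12, from -0.10 to 0.62, beside -0.020 for all tested genes. In size regardless of sign the median was 0.12 for the factors and 0.31 for all tested genes, and no factor changed by 2-fold.

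The count depends on the scaling of the columns. With quantile normalization 5 rose (UPF1, UPF2, UPF3A, UPF3B and SMG5), and with the columns scaled to one common sum (equal-sum rescaling) 7 fell. The latter rescaling moved the median of all genes from -0.020 to -0.82. With 6 small RNAs left out of those sums the count was again 2 higher and 0 lower, and the median of all genes was -0.047. The 6 were SNORD3A, RN7SK, RN7SL1, RN7SL2, RMRP and RPPH1. Relative to the median of all genes, UPF2 stood 0.59 to 0.66 higher and UPF3A 0.22 to 0.30 higher under all 5 scalings, while SMG1 and SMG6 stood below that median under each of them.

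**Figure D1:**
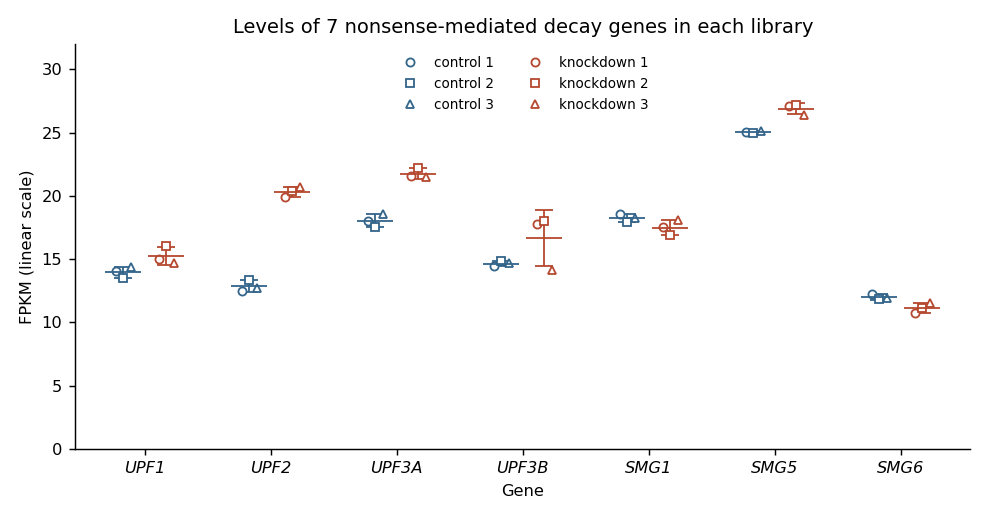
FPKM (linear axis from 0) of the 7 genes in each of 3 control (blue) and 3 knockdown (red) libraries, with horizontal bars for the mean and error bars for the SD. For UPF2 the knockdown libraries lie between 19.9 and 20.7 FPKM, above all control libraries on the deposited scale, while for UPF3B knockdown library 3 lies below the control range.

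UPF1, the helicase on which every branch of the pathway turns, lies on chromosome 19 (18831938 to 18868236, plus strand; all gene positions are 1-based, GRCh38, GENCODE release 29). It stood at 15.0, 16.0 and 14.7 FPKM under knockdown and at 14.1, 13.5 and 14.3 in the control. The lowest knockdown library was above the highest control library by little. The log2 fold change was 0.12 with a 95% interval from -0.0063 to 0.24, and UPF1 did not pass (limma adjusted p = 0.0848). With quantile normalization UPF1 passed (0.23, limma adjusted p = 0.00866).

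UPF2, the bridge between UPF1 and UPF3 (chromosome 10, 11920022 to 12043170, minus strand), had the largest change of the 7 on the deposited scale. It stood at 19.9, 20.4 and 20.7 FPKM under knockdown and at 12.4, 13.4 and 12.7 in the control. The groups lay far apart compared with the spread inside either. Their means were 20.3 ± 0.386 and 12.8 ± 0.474 FPKM (SD, n = 3 each), a ratio of 1.58. UPF2 rose by 0.62 on the log2 scale (standard error 0.050, limma adjusted p = 7.18e-06), and under equal-sum rescaling its value was -0.23, still 0.59 above the median of all genes. Of all tested genes 76.5% had a change no larger in size.

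UPF3A (chromosome 13, 114281584 to 114305817, plus strand) encodes the UPF3 paralogue that binds the exon junction complex weakly. It stood at 21.5, 22.2 and 21.5 FPKM under knockdown and at 18.0, 17.5 and 18.5 in the control, without overlap. Their means were 21.8 ± 0.409 and 18.0 ± 0.495 FPKM (SD, n = 3 each). UPF3A rose by 0.26 (standard error 0.046, limma adjusted p = 0.00116), or -0.60 under equal-sum rescaling. Its reads may be shared with copies elsewhere in the genome: of 2338 windows of 50 bases along its longest coding transcript, 985 (42.1%) were also found in transcripts of other genes. Those were the pseudogenes UPF3AP2 (812 windows), UPF3AP1 (640) and UPF3AP3 (37). None of them was found by symbol among the genes with FPKM values, so their levels could not be set beside that of UPF3A. The level of UPF3A is therefore uncertain where the counting divided such reads.

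UPF3B, the X-linked paralogue and the main reader of the exon junction complex (119805311 to 119852998, minus strand), was the most variable of the 7. It stood at 17.8, 18.0 and 14.1 FPKM under knockdown and at 14.4, 14.8 and 14.7 in the control. Knockdown libraries 1 and 2 were above every control library and knockdown library 3 was below all of them. The coefficient of variation was 13.2% in the knockdown and 1.36% in the control. UPF3B did not pass (log2 fold change 0.17, 95% interval -0.034 to 0.37, limma adjusted p = 0.124). Without knockdown library 3 it passed, at 0.27 (limma adjusted p = 0.00286). That library had the highest relative depth of the knockdown, 94.4% by the low-value steps. UPF3B shared no window of 50 bases with another gene, nor did UPF1, UPF2, SMG5 or SMG6.

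SMG1, the kinase of UPF1 (chromosome 16, 18804853 to 18926454, minus strand), stood at 17.5, 16.9 and 18.1 FPKM under knockdown and at 18.6, 17.9 and 18.3 in the control. The groups overlapped. The log2 fold change was -0.059 with a 95% interval from -0.17 to 0.051 (limma adjusted p = 0.305), the smallest in size of the 7 on the deposited scale, and 0.064 with quantile normalization. SMG1 has many partial copies on its chromosome, and 2895 of 16066 windows of its transcript (18.0%) were shared with other genes, up to 1818 with a single one (SMG1P2). Of these copies SMG1P7 rose, from 2.41, 2.85 and 3.16 FPKM in the control to 3.81, 4.39 and 4.40 in the knockdown (0.45, limma adjusted p = 0.0028, and -0.25 under equal-sum rescaling). SMG1P1, SMG1P3 and SMG1P5 did not pass, with means of 3.78, 3.10 and 4.75 FPKM against 3.52, 2.83 and 5.00. SMG1P2, at 0.965 against 0.810 FPKM, was under the filter. How reads were divided among SMG1 and these copies is not given in the sources used here.

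SMG5 and SMG6 bind phosphorylated UPF1 and start the decay. SMG5 (chromosome 1, 156249224 to 156282825, minus strand), stood at 27.1, 27.1 and 26.4 FPKM under knockdown and at 25.1, 24.96 and 25.1 in the control. All knockdown libraries were above all control libraries, whose coefficient of variation was 0.295%. The log2 fold change was 0.098 (95% interval 0.0036 to 0.19, limma adjusted p = 0.0636), which missed the threshold. With no filter on low genes the same fold change passed (limma adjusted p = 0.0369), and so did 0.28 with quantile normalization (limma adjusted p = 6.69e-04).

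SMG6, the endonuclease (chromosome 17, 2059839 to 2303771, minus strand), had lower values in the knockdown. It stood at 10.7, 11.1 and 11.5 FPKM under knockdown and at 12.3, 11.8 and 11.9 in the control, without overlap. The log2 fold change was -0.10 (95% interval -0.22 to 0.017, limma adjusted p = 0.115). Exons of SMG6 share 2419 bases with HIC1 and 68 with SRR, both on the opposite strand, and whether strand was used in counting is not given in the sources used here. HIC1 stood at 0.319 ± 0.031 FPKM under knockdown and 1.23 ± 0.216 in the control, and SRR at 3.10 ± 0.404 against 4.09 ± 0.319 (SD, n = 3 each).

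**Figure D2:**
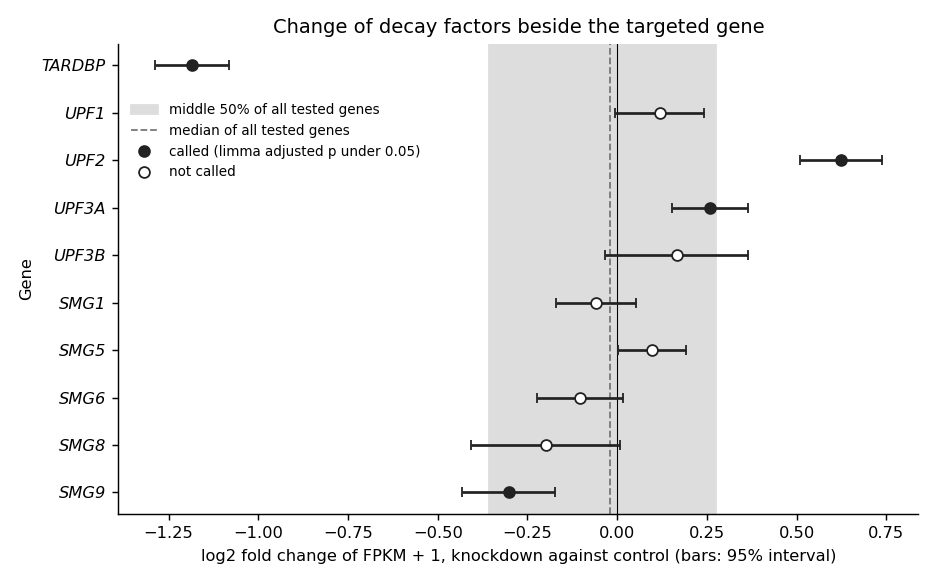
Log2 fold change of FPKM + 1 with 95% interval for TARDBP, the 7 factors, SMG8 and SMG9 on the deposited scale, with filled points for genes that passed limma at an adjusted p under 0.05. The grey band spans the middle 50% of all tested genes and the dashed line is their median (-0.020). Only TARDBP, UPF2, UPF3A and SMG9 are filled among the genes drawn.

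FPKM is scaled to transcript length, so levels can be ordered, within the limits given above. These are the windows that UPF3A and SMG1 share with other genes and the exon overlap of SMG6. In the control SMG5 had the highest level of the 7 (25.0 FPKM) and SMG6 the lowest (12.01 FPKM). Between them came SMG1 (18.3), UPF3A (18.0), UPF3B (14.6), UPF1 (14.0) and UPF2 (12.8 FPKM). Of the neighbours in this order SMG1 and UPF3A had overlapping libraries. In the knockdown UPF2 moved from the sixth place to the third, after SMG5 and UPF3A and before SMG1, UPF3B, UPF1 and SMG6. There the libraries of SMG1 and UPF3B overlapped, as did those of UPF3B and UPF1. All 7 levels in the control lay between the 55.9th and 78.8th percentile of tested genes.

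Ratios inside a library do not change when a column is multiplied by a constant, though quantile normalization can change them. UPF1 to UPF2, the helicase over its activator, was 0.753, 0.786 and 0.712 in the knockdown and 1.13, 1.01 and 1.13 in the control. UPF1 was thus above UPF2 in every control library and below it in every knockdown library. The log2 difference was -0.54, and p was 0.1 by a two-sided exact permutation test, which can go no lower with 3 libraries a group (0.15 adjusted over the 3 ratios). SMG6 to SMG5, the endonuclease over the decapping branch, was 0.396, 0.410 and 0.436 in the knockdown and 0.489, 0.474 and 0.476 in the control. Its log2 difference was -0.21 without overlap (exact permutation p = 0.1, adjusted 0.15). UPF3B to UPF3A was 0.825, 0.812 and 0.656 in the knockdown and 0.800, 0.846 and 0.791 in the control. Here the groups overlapped (log2 difference -0.095, exact permutation p = 0.7, adjusted 0.7), and the sign turned without knockdown library 3 (0.011).

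**Figure D3:**
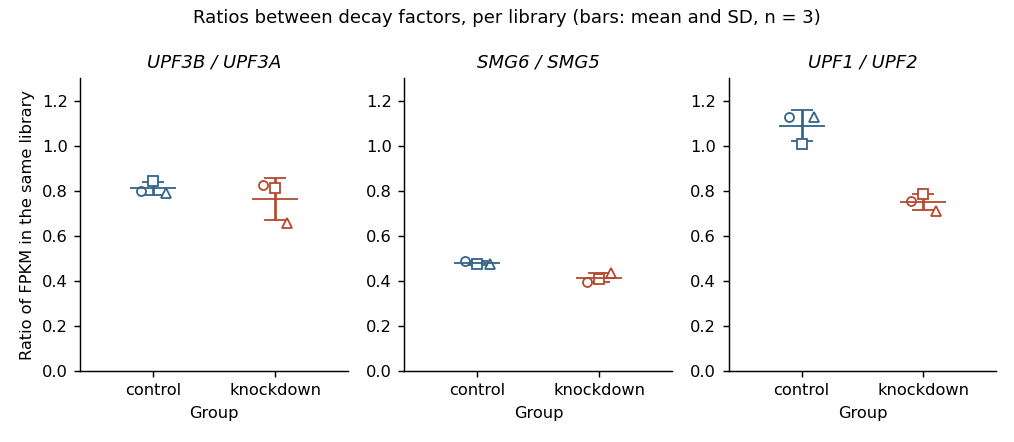
Ratio of FPKM (linear axis from 0) of UPF3B to UPF3A, SMG6 to SMG5 and UPF1 to UPF2 in each library, with mean and SD (n = 3). UPF1 to UPF2 falls from a mean of 1.09 in the control to 0.750 in the knockdown with no overlap, and the UPF3B to UPF3A ratios overlap.

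Across the 6 libraries the tested genes most like each factor, by Pearson's r of log2(FPKM + 1), were LOC100272216 and PAX5 for UPF2 and TTC38 and ZNF496 for UPF3A. They were CACTIN and ZNF688 for UPF1, ZC3H13 and PIAS1 for SMG5, and LOC401052 and FAM222B for UPF3B. For SMG1 they were SLC35F5 and TTC4, and for SMG6 COMMD1 and SMARCAL1. These r ran from 0.980 to 0.99995 and are descriptions over 6 points in 2 groups, which share their libraries.

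Other genes of the pathway moved in both directions. Of 37 tested, 11 rose and 12 fell, so 62.2% were called beside 66.3% of all tested genes, with a median log2 fold change of 0.047. The number that rose was 7 without control library 1, 20 with quantile normalization and 0 under equal-sum rescaling. None changed by 2-fold on the deposited scale, which the counts by role below use. On that scale 30.5% of all tested genes rose and 35.9% fell, the shares to set beside those counts.

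Of 2 further SMG genes 0 rose and 1 fell. SMG9, which with SMG8 regulates the SMG1 kinase, fell by 0.30, from 11.3, 10.8 and 11.1 FPKM to 8.46, 9.25 and 8.72 (limma adjusted p = 0.00143). SMG8 stood at 10.7, 8.29 and 10.6 FPKM against 11.8, 11.4 and 10.97, a log2 fold change of -0.20 that did not pass (limma adjusted p = 0.083). Without knockdown library 2, which held the lowest value, it was -0.091, and it passed when the columns had equal sums without the 6 small RNAs (-0.23, limma adjusted p = 0.042). SMG8 passed under equal-sum rescaling too (-1.03, limma adjusted p = 2.31e-07), where all 37 of these genes fell.

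Of 7 exon junction complex genes 2 rose and 3 fell, with 1 risen without control library 1 or control library 2. CASC3, a core subunit, stood at 32.9 ± 2.40 FPKM against 24.0 ± 1.04 (0.44, limma adjusted p = 2.63e-04, and -0.43 under equal-sum rescaling). WIBG (now PYM1), which takes the complex apart, stood at 11.9 ± 1.00 against 16.2 ± 1.33 (-0.42, limma adjusted p = 0.00137). Among genes of termination and poly(A) binding 1 rose and 2 fell of 4. PABPC1, the poly(A)-binding protein that counters NMD near a normal stop codon, stood at 459, 456 and 457 FPKM under knockdown and at 290.2, 287 and 289 in the control. Its rise of 0.66 (limma adjusted p = 2.02e-07) was the largest among these 37 genes on the deposited scale, and was -0.24 under equal-sum rescaling. The release factor gene ETF1 fell by 0.30 (limma adjusted p = 0.00117) and did not pass with quantile normalization (-0.047, limma adjusted p = 0.405).

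Of 5 helicases and ATPases around UPF1 and SMG1, 2 rose and 1 fell. DHX34, an RNA helicase that aids the phosphorylation of UPF1, stood at 8.74, 9.49 and 8.64 FPKM under knockdown and at 5.54, 5.49 and 5.79 in the control. It rose by 0.59 (limma adjusted p = 4.29e-05), with -0.20 when columns were rescaled to equal sums. MOV10, an RNA helicase that binds UPF1, fell by 0.72, from 11.8, 11.0 and 11.1 FPKM to 5.86, 6.88 and 6.61 (limma adjusted p = 2.31e-05). PPP2CA, a catalytic subunit of the phosphatase that acts on UPF1, fell by 0.69, from 63.7, 63.5 and 61.8 FPKM to 37.7, 38.5 and 39.97 (limma adjusted p = 1.08e-06). In each of these 3 genes all libraries of the groups lay apart.

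Of 10 decapping and decay genes 5 rose and 1 fell. The number that rose was 2 without control library 1, and 3 without control library 3, knockdown library 1 or knockdown library 3 or with no filter on low genes. The decapping enzyme gene DCP2 stood at 19.8 ± 1.84 FPKM against 15.0 ± 0.492 (0.37, limma adjusted p = 0.00145, and -0.48 under equal-sum rescaling). EXOSC10, a nuclease of the nuclear exosome, stood at 18.2 ± 0.658 against 25.0 ± 0.746 (-0.44, limma adjusted p = 6.17e-05). The cap-binding gene NCBP2 rose by 0.21 (limma adjusted p = 0.0155, and -0.68 under equal-sum rescaling) but did not pass without control library 3 (0.17, limma adjusted p = 0.062). Among 3 genes of other UPF1-dependent decay 1 fell, STAU2, by 0.33 (limma adjusted p = 0.00313). HNRNPL and PTBP1, RNA-binding proteins that shield transcripts from NMD, fell by 0.26 and 0.15 (limma adjusted p = 3.64e-04 and 0.0151), with values of 0.040 and 0.10 under quantile normalization. PTBP1 did not pass without control library 3 or without knockdown library 3 (-0.12 and -0.13).

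**Figure D4:**
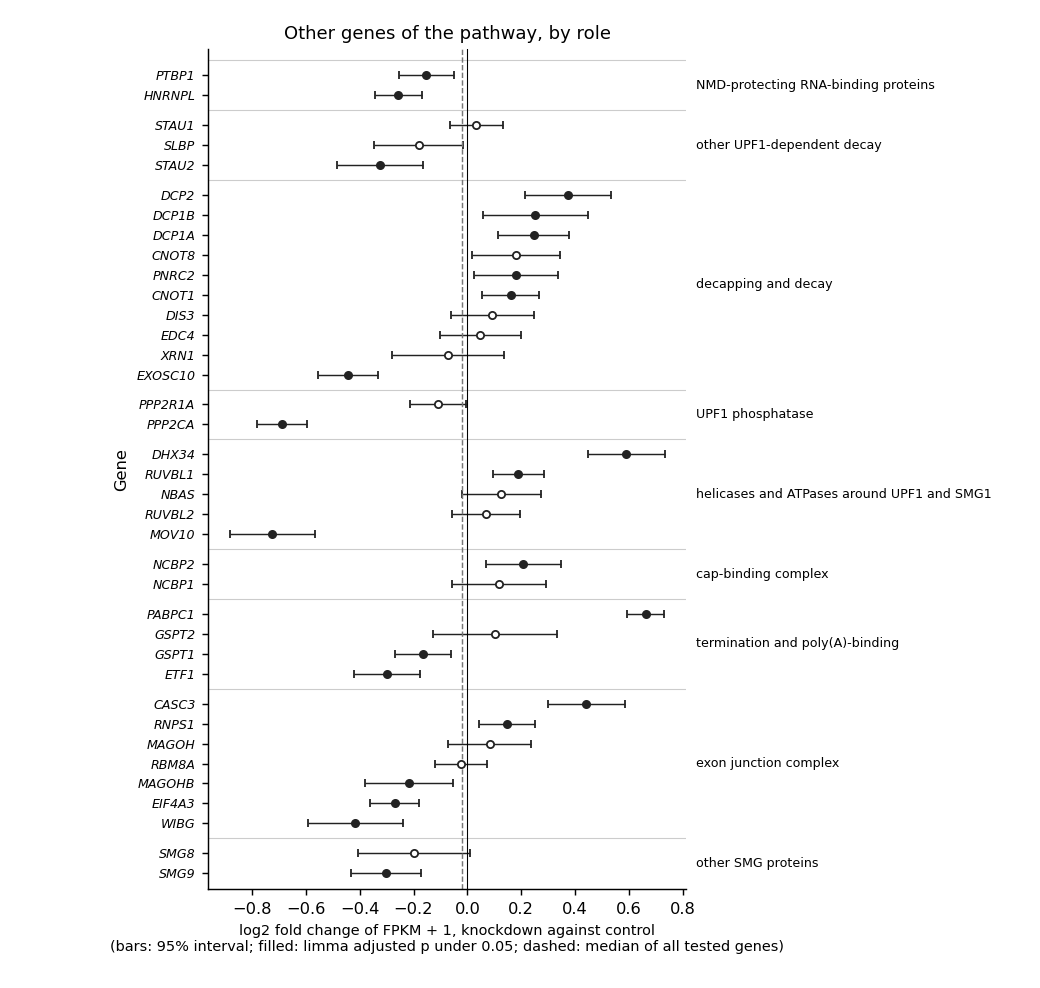
Log2 fold change of FPKM + 1 with 95% interval for 37 other genes of the pathway on the deposited scale, grouped by role, with filled points for limma adjusted p under 0.05 and a dashed line for the median of all tested genes. PABPC1 and DHX34 lie farthest to the right and MOV10 and PPP2CA farthest to the left.

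Transcripts known from earlier work to be degraded by NMD moved in both directions. Of 29 such genes 28 were tested, of which 8 rose and 12 fell, so 71.4% were called beside 66.3% of all tested genes. Their median was -0.054. With quantile normalization 15 rose and 9 fell, and under equal-sum rescaling 2 rose and 25 fell. FPKM per gene adds up stable and degraded isoforms and does not show decay.

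Stress and signalling transcripts made up most of the falls (median -0.49). Beside 35.9% lower and 30.5% higher of all tested genes, 9 of these 12 had fallen and 1 had risen. The rise, of ERN1 (named after its values were seen, 0.22), was lost without knockdown library 1, control library 1 or control library 2 and with the replicate block. GADD45B, a growth-arrest gene and a classical NMD target, stood at 0.535, 0.396 and 0.622 FPKM under knockdown and at 14.4, 15.9 and 14.3 in the control (-3.39, limma adjusted p = 4.43e-09). CDKN1A, the cell cycle inhibitor p21, stood at 17.7 ± 0.986 FPKM against 59.6 ± 1.90 (-1.70, limma adjusted p = 1.74e-08). The uridine phosphorylase gene UPP1 stood at 1.15 ± 0.351 against 4.71 ± 0.209 (-1.42, limma adjusted p = 1.05e-05). These libraries also differed in the mesenchymal markers given above, whose part in these falls was not tested.

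Of 6 noncoding RNAs, mostly hosts of small nucleolar RNAs, 4 rose and 1 fell with the values as deposited (median 0.47), against 2 and 4 under equal-sum rescaling. As deposited, 30.5% of all tested genes rose and 35.9% fell. GAS5 stood at 417, 394 and 413 FPKM under knockdown and at 194, 203 and 190.01 in the control, a rise of 1.06 (limma adjusted p = 6.4e-08). EPB41L4A-AS1 stood at 19.4, 18.8 and 21.1 FPKM against 9.10, 8.22 and 8.57, a rise of 1.11 (limma adjusted p = 7.96e-07). ZFAS1 rose by 0.50, from 60.8 ± 2.90 to 86.5 ± 6.36 FPKM (limma adjusted p = 1.06e-04, and -0.39 under equal-sum rescaling). Their median was 0.40 above that of all genes under equal-sum rescaling.

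Of 10 genes with poison exons or NMD-sensitive isoforms 3 rose and 2 fell, beside 30.5% and 35.9% of all tested genes. With quantile normalization 9 rose, and under equal-sum rescaling 9 fell. Those that rose on the deposited scale were the ribosomal protein genes RPL12, RPL3 and RPL10A, at 2407 ± 58.4, 1012 ± 14.5 and 957 ± 49.0 FPKM against 1344 ± 20.5, 645 ± 7.72 and 651 ± 3.21 (limma adjusted p from 1.04e-07 to 5.23e-06). Their log2 fold changes of 0.84, 0.65 and 0.55 were -0.063, -0.25 and -0.35 under equal-sum rescaling. Processed pseudogenes of these genes are common, and the levels are uncertain where their reads were counted together. The ones that fell on the deposited scale, named after their values were seen, were TRA2A (-0.33) and SRSF3 (-0.17).

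**Figure D5:**
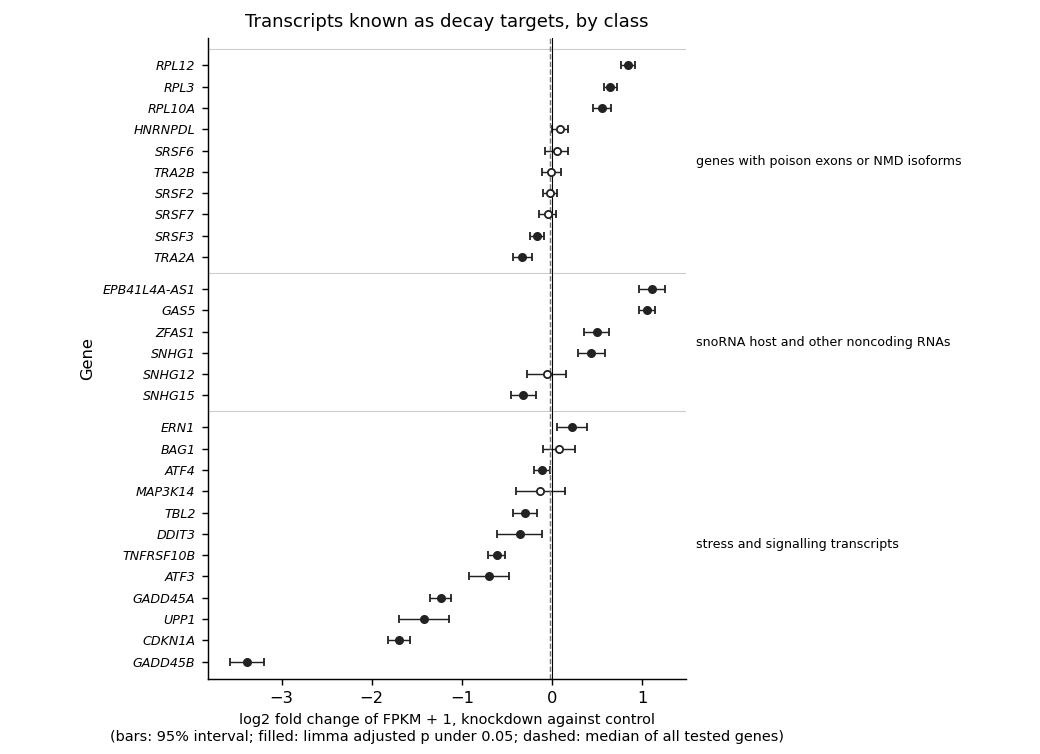
Log2 fold change of FPKM + 1 with 95% interval for 28 tested NMD target genes on the deposited scale, grouped by class, with filled points for limma adjusted p under 0.05. Stress transcripts reach -3.39 (GADD45B) and the noncoding hosts GAS5 and EPB41L4A-AS1 lie at 1.06 and 1.11.

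TDP-43 binds stretches of UG repeats. An unbroken run of TG units of at least 12 bases was in the longest coding transcript of 718 of 19669 genes (3.65%) and in none of the 7 factors. Alternating runs of exactly 12 bases that begin with G were not searched for. Introns and other transcripts were not searched, and no match says only that these letters are not in those sequences.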

How the data were processed

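The data are 6 poly(A) libraries of SH-SY5Y cells, 3 of TDP-43 knockdown and 3 of control cells, prepared with a directional kit according to the labels. Each gene has an FPKM value per library in the table the authors deposited. TopHat2 2.1.0, SAMtools, Cuffdiff 2.2.1 and the hg38 build are named, without their roles, per the submitters' processing notes. Neither the annotation nor the use of strand is given in the sources used here. Columns were matched to samples by title, and 0 further columns of sample values were present.

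Fold changes are on the log2(FPKM + 1) scale and so understate those of low genes. The 13434 genes whose mean reached 1 FPKM were compared by limma 3.58.1 (R 4.3.3) with a mean-variance trend, two-sided, with Benjamini-Hochberg adjustment over all of them and a threshold of 0.05. Relative depth is the modal ratio between libraries of values below 0.3 FPKM, at which genes with equal fragment numbers coincide. It depends on how the columns were scaled. Intervals are 95% intervals of the moderated test.

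The 7 genes and all lists were chosen with earlier results of these data known. Named genes were TARDBP, the 7 factors, SMG8 and SMG9, up to 2 called genes with the largest change per other role of the pathway and up to 3 per class of targets, and every listed copy. Some genes of the pathway are not reported here and were left out of its counts. The gene PYM1 was matched by its older symbol WIBG. The alternatives tried were other pseudocounts (0.1, 0.5), other minimum means (0.1 FPKM, 5 FPKM, no minimum), 4 rescalings, limma with no trend or with robust variances, a replicate block and leaving out each library. Positions are from GENCODE release 29 and promoter sequences from RefSeq. Scripts used Python 3.11.15, numpy 2.4.6, pandas 2.3.3, scipy 1.17.1 and matplotlib 3.10.9.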

Additional observations from a re-analysis of the deposited data

How the results depend on the processing

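Pseudocounts, limma with no trend or with robust variances, median-of-ratios rescaling and the minimum means of 0.1 and 5 FPKM changed no call of the named genes they tested. Under equal-sum rescaling the counts became 0 factors higher and 7 lower (median -0.73), 0 other pathway genes higher and 37 lower, and 2 targets higher and 25 lower. Under that setting the log2 fold changes were -0.73 for UPF1, -0.23 for UPF2, -0.60 for UPF3A, -0.68 for UPF3B, -0.77 for SMG5, -0.43 for CASC3, -0.24 for PABPC1, -0.68 for NCBP2, -0.20 for DHX34, -0.48 for DCP2, -0.39 for ZFAS1, -0.063 for RPL12, -0.25 for RPL3, -0.35 for RPL10A, -0.63 for SMG1P1, -0.58 for SMG1P3 and -0.25 for SMG1P7, while the median of all genes was -0.82. With quantile normalization (median of all genes 0.091) 5 factors rose (median 0.28), 20 other pathway genes rose and 6 fell, and 15 targets rose and 9 fell. SMG1 (0.064), HNRNPL (0.040) and PTBP1 (0.10) turned positive there. Of all calls 58.8% were higher with quantile normalization and 4.27% with equal sums, against 45.9% on the deposited scale. The shift with equal sums went with the FPKM sums given above, which were higher in every knockdown library. With 6 small RNAs left out of the sums the median of all genes was -0.047, so most of its shift with equal sums was absent without these RNAs. Why the sums differed, and what lay behind the shift with quantile normalization, was not tested.

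When each library was left out in turn, 2 to 3 factors and 7 to 15 other pathway genes rose, 11 to 13 other pathway genes fell, 7 to 9 targets rose and 10 to 12 fell, and the median of the factors ran from 0.091 to 0.14. The log2 difference of UPF3B to UPF3A ran from -0.15 to 0.011, that of SMG6 to SMG5 from -0.25 to -0.18 and that of UPF1 to UPF2 from -0.59 to -0.50. SMG1P5 turned from -0.055 to 0.0035 without control library 3 and was -0.16 without control library 2. With the replicate number as a block 2 factors rose and 0 fell, 10 other pathway genes rose and 12 fell, and ERN1 lost its call, while no gene named by the rule changed its own. Deviations of same-numbered libraries had correlations of -0.018, -0.18 and -0.091, and those of other pairs -0.095 to 0.15. Deviations within a group sum to 0, so these correlations are tied to one another. They cannot tell whether libraries were paired, and the labels state no pairing. With libraries paired by number the exact sign-flip p was 0.25 for UPF1 to UPF2 and for SMG6 to SMG5, the smallest possible, and 0.5 for UPF3B to UPF3A. The absolute depth is unknown, which limits what can be said of low genes such as SMG1P2.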

Other observations

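Long noncoding RNAs named as small nucleolar RNA hosts (symbols SNHG followed by a number) were looked at after the rise of GAS5 and ZFAS1 had been seen. Of 17 tested, 12 rose and 2 fell, beside 30.5% and 35.9% of all tested genes, with a median log2 fold change of 0.44. SNHG8 stood at 747 FPKM under knockdown and 411 in the control (0.86, limma adjusted p = 2.32e-07), and SNHG20 at 11.1 against 5.60 FPKM (0.88, limma adjusted p = 6.98e-05). The ones that fell were SNHG9 (-0.51) and SNHG15 (-0.32). SNHG5, at 339 against 330.3 FPKM, did not pass. Under equal-sum rescaling 0 rose and 14 fell, and their median stayed 0.40 above that of all genes.

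The promoter motif TCGCGAGA shared by UPF3A, UPF3B and SMG5 was followed over all genes. Of 279 tested genes with it 73 rose and 99 fell, 61.6% called in all, and of 9633 tested genes with promoter windows but without it 67.1% were called. The median log2 fold change was -0.044 with the motif and -0.043 without. No test was made of this difference.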
